A study of Homo sapiens with 2 samples.

Results

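The hnRNP and core spliceosome genes are 43 human genes for proteins that package and splice pre-mRNA. They were chosen by name from textbook knowledge, with earlier results of these data known. The binding sites of YBX1 on their transcripts were collected from a PAR-CLIP experiment. A site was counted for a gene when its midpoint lay inside the span of the gene in GENCODE release 44 (hg38) on the strand of the site. By this rule 25 of the 2054 listed sites fell in 16 of the 43 genes, and 27 genes had no listed site. PAR-CLIP was performed in HEK293 cells, an established human embryonic kidney line, in 2 replicates of 1 group with no control sample or treatment to compare with. According to the methods the line was T-REx HEK293 Flp-In with a stable transgene for YBX1 carrying a FLAG/HA tag, pulled down through the tag with anti-FLAG M2, so the bound protein includes an overexpressed one, but the labels give a YBX1 antibody (D2A11) for both samples. The cells were fed 4-thiouridine, which crosslinks to bound protein under UV light, and RNA was trimmed with RNase T1, which cuts after G. The authors pooled both replicates into 1 list that gives positions and no read count, so no site has a strength, an error between replicates or a depth, and each interval given is for counting error alone.

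YBX1 is a cold-shock domain protein that coats mRNA in the cytoplasm and takes part in mRNA stability and translation. The hnRNPs are abundant nuclear proteins that cover nascent RNA and steer the choice of splice sites, and several of them bind their own transcripts. The spliceosome is built from small nuclear ribonucleoproteins (snRNPs): U1 reads the 5′ splice site, U2 with the SF3A and SF3B subunits pairs with the branch point, and the U4/U6.U5 tri-snRNP brings in the proteins around which the catalytic centre forms. All values in the text concern the mRNAs of these proteins, not the splicing reactions in which the proteins act.

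The sites of the hnRNP genes are printed first, on the RNA strand from 5′ to 3′, since their sequences are the primary data of the list. Capitals mark any of 5 tetramers (CAUC and also CAAC, the related AACA with its variant AACU, besides these CACC), which were taken from an earlier description of all sites and searched on the RNA strand only.
HNRNPA1, chr12:54286297-54286317, plus strand: auuuuacuuaCAUCcauauag
HNRNPA2B1, chr7:26192145-26192169, minus strand: auuauuuaauAACAuuaccuuacug
HNRNPA3, chr2:177220743-177220763, plus strand: uauauuuCAACAuaaaucaug
HNRNPA3, chr2:177223473-177223497, plus strand: cuucuaauauuacacuucuaaaaag
HNRNPD, chr4:82355321-82355349, minus strand: cuacaaaccauacuaaauuauuccauuug
HNRNPF, chr10:43386034-43386061, minus strand: uuAACUaaauuuuuuucuuaaaauaaag
HNRNPR, chr1:23318653-23318673, minus strand: uuauucucuauCAUCAACccg
HNRNPU, chr1:244854401-244854428, minus strand: auacauauuucuccaaaaccuucacaag
HNRNPU, chr1:244854352-244854376, minus strand: cuAACUuuuuaAACAuuccacaaga
HNRNPU, chr1:244851780-244851804, minus strand: uuuucccucauauacucacauacag

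The sites of the spliceosome genes are printed in the same way, with the same tetramers in capitals.
SNRPA, chr19:40751387-40751411, plus strand: acuuaccuCAACAcuucacuccaug
SF3A1, chr22:30344957-30344975, minus strand: ccucuuCAACUacuucacg
SF3B1, chr2:197392251-197392272, minus strand: gcuacuucaCACCuuaAACUug
SF3B1, chr2:197392079-197392096, minus strand: auuauauacacuauacug
SF3B2, chr11:66059004-66059024, plus strand: ccCAACUuuaucuucuuuaag
SF3B3, chr16:70561662-70561679, plus strand: cuauucuuaccaaucucg
SF3B3, chr16:70563969-70563988, plus strand: uAACAACcuuauuaucauug
PRPF8, chr17:1679041-1679060, minus strand: acuaCAACUuCAACcucaag
PRPF8, chr17:1658320-1658341, minus strand: cCAUCuuCAUCuuCAACccacg
PRPF8, chr17:1656529-1656552, minus strand: acuuccccaauauuguCAUCaaag
SNRNP200, chr2:96290443-96290467, minus strand: cauacuCAUCaCAUCucauggggag
SRRM2, chr16:2763705-2763724, plus strand: acaaucucaAACUuCACCag
SRRM2, chr16:2763792-2763813, plus strand: caaaucucaAACAUCACCuaag
SRRM2, chr16:2763950-2763970, plus strand: acucuucuucauauccuacag
DHX15, chr4:24548918-24548938, minus strand: uauucuacacuucCACCucag

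The first question was how many of these genes carry a site. Of the 43 genes 16 did (37.2%, Wilson 95% interval 24.4 to 52.1), whereas 6.76% of 20033 protein-coding genes did by the same rule. Among the 15 hnRNP genes 7 had a site, among the 3 PTB genes 0, and among the 25 spliceosome genes 9. The genes were chosen with results of this list known and the level of each mRNA in the cells was not part of the comparison, so no test was made and the share is read beside the background only. By number, 10 genes had 1 site, 3 genes had 2 (HNRNPA3, SF3B1 and SF3B3) and 3 genes had 3 (HNRNPU, PRPF8 and SRRM2). At least 2 sites lay in 6 of the 43 genes (14.0%), against 1.47% of all protein-coding genes. A 3′UTR site was listed for 6 of the 43 genes (14.0%), against 3.72% of all protein-coding genes, and a coding site for 9 (20.9%), against 2.58%. The authors' gene column gave these names to the same 25 sites.

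**Figure D1:**
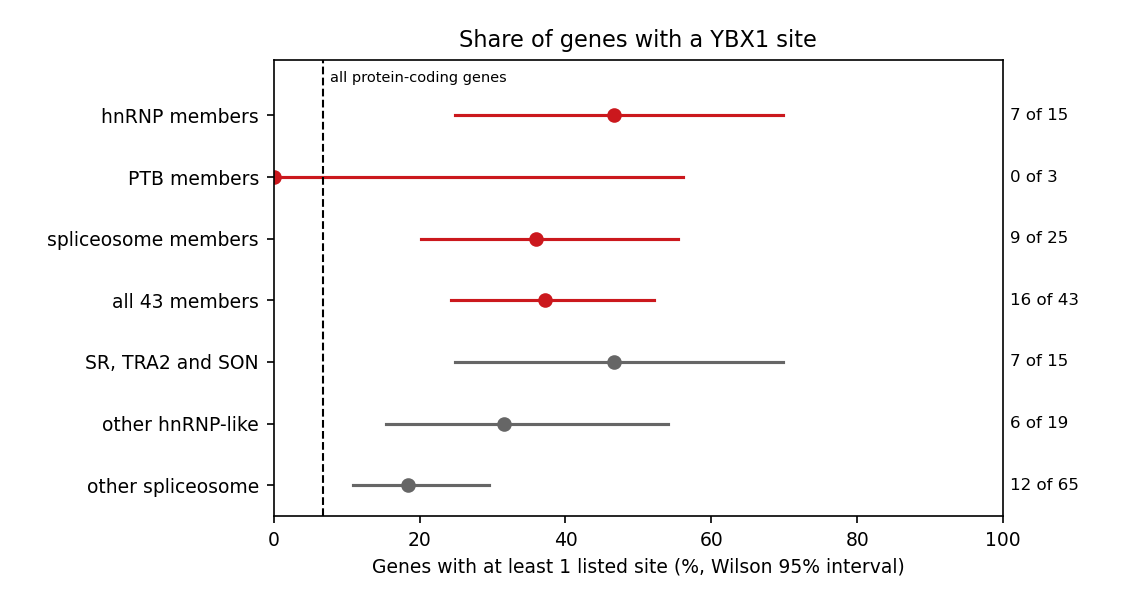
Share of genes with at least 1 listed YBX1 site (x axis, percent) for the member groups (red) and 3 related lists (grey), with points for the share, lines for the Wilson 95% interval and the count at the right. The dashed line marks all protein-coding genes at 6.76%; the points for hnRNP members and for SR, TRA2 and SON both lie at 46.7%, and the PTB members at 0.

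Within the hnRNP genes, 8 of 10 sites lay in the 3′UTR and 2 in the coding sequence of the main transcript (MANE Select). The A/B type hnRNPs, which repress or promote exon inclusion, had 4 of these sites. HNRNPA1 had 1 site that began 1753 nt after the stop codon in a 3′UTR of 2543 nt, and HNRNPA2B1 had 1 that began 191 nt after the stop in 2433 nt. In HNRNPA3 sites began at nt 1351 and nt 4081 of a 3′UTR of 4567 nt. These places differed from gene to gene, both close to the stop codon and close to the transcript end. HNRNPA0, a single-exon gene of the same family with a 3′UTR of 7498 nt, had no listed site. The authors' class for the HNRNPA1 site was intergenic, while GENCODE has it in the last exon, where a gene without a symbol on the same strand (ENSG00000258344) covers it as well.

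HNRNPU, which encodes the scaffold attachment factor SAF-A, carried 3 sites and was the hnRNP gene with the most. The first began 22 nt after the stop codon, the second 74 nt after it, with 24 nt between them, and the last at nt 2646 of a 3′UTR of 4153 nt. All 3 HNRNPU sites were wider than the median site of 22 nt. HNRNPF, which binds G-rich RNA, had 1 site at nt 576 of its 3′UTR of 1019 nt. That site holds AAUAAA, the hexamer of the polyadenylation signal, and ends 12 nt before the annotated end of a protein-coding transcript that stops before the main one. The hexamer is in capitals here, and it was found in 1 of the 25 sites.
HNRNPF, polyadenylation hexamer: uuaacuaaauuuuuuucuuaaAAUAAAg

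HNRNPD, also known as AUF1, which binds AU-rich elements and takes part in mRNA decay, had a site across its stop codon. The site of 29 nt began at nt 1053 of the 1068 nt coding sequence, counted with the stop codon, and ran on into the 3′UTR.
HNRNPD, stop codon in capitals: cuacaaaccauacUAAauuauuccauuug
HNRNPR, a close relative of hnRNP Q, had a site in exon 8 of 11 at nt 827 of a coding sequence of 1902 nt, and none in a 3′UTR of 5766 nt. The HNRNPR 3′UTR was the second longest of the hnRNP genes, after that of HNRNPA0.

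No site was listed for the other hnRNP genes. These were HNRNPC, which binds uridine tracts, HNRNPK, which binds C-rich RNA, HNRNPL, which binds CA repeats, HNRNPM, which binds G- and U-rich RNA, and the G-run binding trio HNRNPH1, HNRNPH2 and HNRNPH3. PTBP1, PTBP2 and PTBP3, which bind polypyrimidine tracts and repress exons, had none as well. In PTBP3 this holds for a mature transcript of 7192 nt with 63 stretches of at least 17 nt without G, more than in any other of the 43 mRNAs. A count of 0 here says only that no site was listed, since neither the level of these mRNAs nor the depth is known.

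Among the spliceosome genes, 12 of 15 sites lay in the coding sequence, 2 in a 3′UTR and 1 in a 5′UTR. The subunits of SF3A and SF3B, which hold the U2 snRNP on the branch point, had 6 sites in 4 genes. SF3A1 had 1 at nt 609 of 2382 nt of coding sequence, in exon 4 of 16, and SF3B2 had 1 at nt 1141 of 2688 nt, in exon 10 of 22. In SF3B3 sites began at nt 2166 and nt 2382 of 3654 nt, in the neighbouring exons 17 and 18, although its 3′UTR is longer than its coding sequence (5855 nt). SF3B1, the subunit that contacts the branch point and is often mutated in blood cancers, was the exception, with sites 31 nt and 207 nt after the stop codon and none in 3915 nt of coding sequence. No site was listed in SF3A3, in SF1, which first recognises the branch point, in U2AF1 and U2AF2, which read the 3′ splice site, or in RBM39, which resembles U2AF2.

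PRPF8, the protein at the heart of the spliceosome, carried 3 sites, all in a coding sequence of 7008 nt. One began at nt 1556 in exon 11 of 43, and the others at nt 5417 in exon 34 and nt 5633 in exon 36. The sites in exons 34 and 36 lay 194 nt apart in the mature mRNA. SNRNP200, the helicase that unwinds U4/U6, had 1 site at nt 2601 of 6411 nt, in exon 20 of 45. The other tri-snRNP genes PRPF3 (a U4/U6 protein), PRPF4B (a kinase), PRPF6 (a bridge between U5 and U4/U6) and EFTUD2 (the U5 GTPase) and the ubiquitin ligase PRPF19 had no listed site. The coding sequences of these unlisted genes measured at most 3024 nt, so the listed pair had the longest ones of the group.

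SRRM2, a large serine- and arginine-rich scaffold of nuclear speckles, had 3 sites within 1 exon (exon 11 of 15) at nt 3177, nt 3264 and nt 3422 of 8259 nt of coding sequence, with gaps of 67 and 136 nt. The first and the second were alike in sequence, with 15 of 20 aligned bases identical, whereas the last matched them at 9 and 11 of 20 bases. SRRM1, a splicing coactivator that acts with it, had no listed site. Of the helicases, DHX15, which takes spliceosomes apart, had 1 site at nt 1165 of 2388 nt, and DDX5, a DEAD-box helicase, had none.

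SNRPA, a protein that binds the RNA of the U1 snRNP, had the only 5′UTR site. It covered nt 185 to nt 209 of the mRNA and ended with the last base of the start codon, which is in capitals here.
SNRPA, start codon in capitals: acuuaccucaacacuucacuccAUG
The G of the start codon is the base after which RNase T1 would cut. SNRPA was also the shortest of the 16 mRNAs (1277 nt). The other genes around the 5′ splice site, SNRNP70, which binds the U1 RNA, SNRPB, a component of the Sm ring, and the U1-associated LUC7L3 and RBM25, had no listed site, including LUC7L3 and RBM25 with mRNAs of 6987 and 6813 nt.

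**Figure D2:**
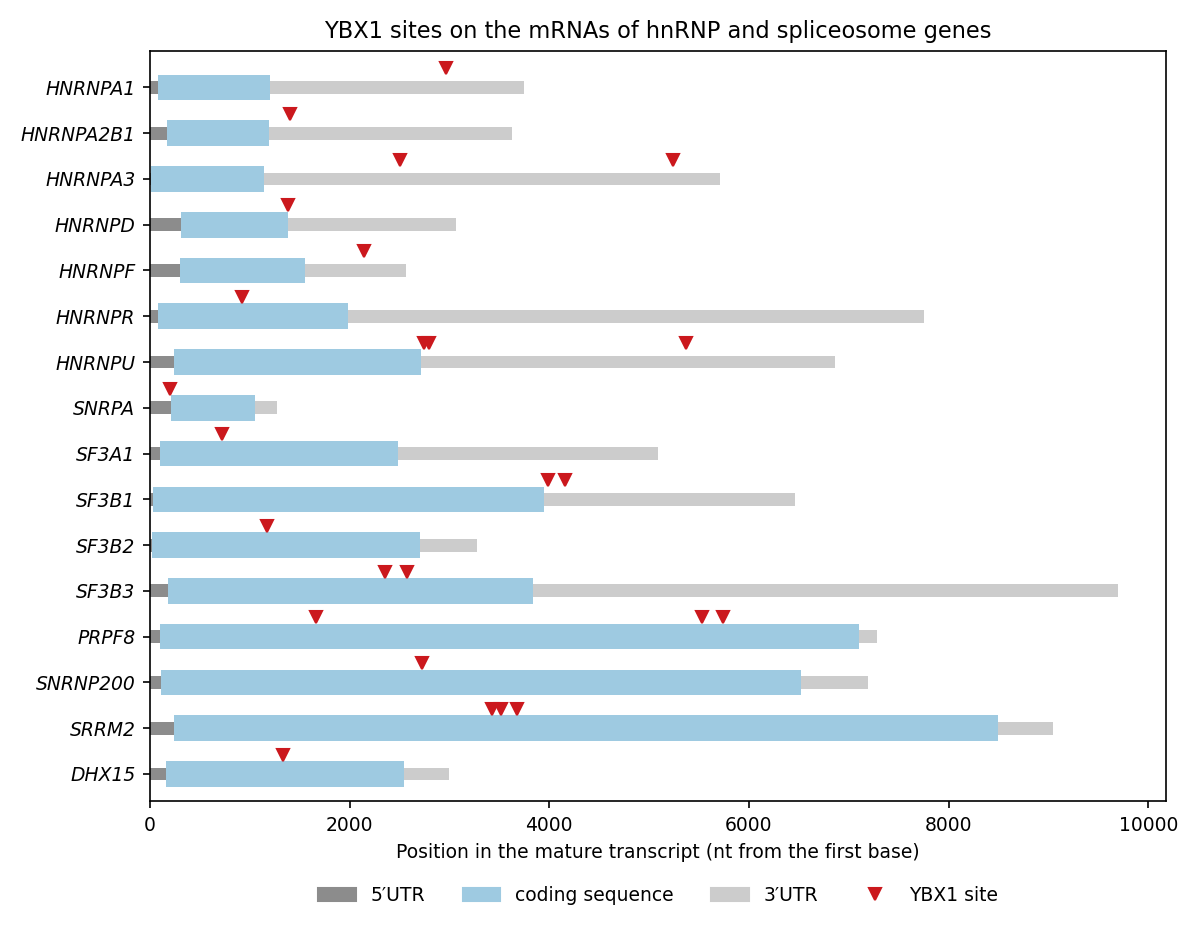
Map of the 16 mRNAs with a listed site, drawn to scale along the mature transcript (x axis, nt), with the 5′UTR in dark grey, coding sequence in blue, 3′UTR in light grey and each YBX1 site as a red triangle at its midpoint. In HNRNPA1 to HNRNPU 8 of 10 sites lie over the 3′UTR, and in SNRPA to DHX15 12 of 15 lie over the coding sequence.

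Over all 25 sites, 10 lay in 3′UTRs (40%, 23.4 to 59.3), 14 in coding sequence (56.0%, 37.1 to 73.3) and 1 in a 5′UTR (4%) of the main transcript. Of the 2029 sites outside these genes, 945 lay in 3′UTRs (46.6%), 620 in coding sequence (30.6%, 28.6 to 32.6) and 20 in 5′UTRs. The rest included introns and intergenic sequence, in which no member site lay. The coding share of 56.0% and that of 30.6% therefore have unlike bases, and no excess is read from them. If each site fell on its mRNA in proportion to length, 6.45 of the 10 hnRNP sites would lie in 3′UTRs, where 8 were listed, and 11.2 of the 15 spliceosome sites would lie in coding sequence, where 12 were listed. Over all members the lengths give 9.80 sites in 3′UTRs and 14.4 in coding sequence. The difference in placement between hnRNP and spliceosome mRNAs was not tested. When a site was counted as 3′UTR wherever it is 3′UTR in any annotated transcript, 17 of 25 member sites (68.0%, 48.4 to 82.8) were 3′UTR sites, against 55.2% of the others. The shares of the others are over all 2029 sites, those outside UTRs and coding sequence included. This holds for the main transcript as well (40% against 46.6%). The shares of members and others thus have unlike bases. In this count 1120 of the 2029 other sites were 3′UTR, 477 coding and 23 5′UTR, and the rest were none of these. Of the 25 member sites 17 were 3′UTR, 7 coding and 1 5′UTR. No order of members and others is therefore read from the shares. With 3′UTR ranked first, the 3 PRPF8 sites, the 3 SRRM2 sites and the HNRNPD site changed class, each through transcripts annotated for nonsense-mediated decay. The PRPF8 sites are 3′UTR in 1 such transcript and coding in 5 or 6 protein-coding ones, the SRRM2 sites in 1 and 2. In this count 8 of the 15 spliceosome sites were 3′UTR and 6 coding. That change came from the ranking. With coding ranked first over any transcript, 14 of the 25 member sites were coding and 10 3′UTR, as with the main transcript.

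Coding sites lay inside single exons. Outside SRRM2 they were 13 to 63 nt from the nearest exon edge, and in the long SRRM2 exon 2144 to 2389 nt. Each site is listed with 1 start and 1 end on the genome, so sites across a junction cannot be judged from this list. Neighbouring sites in 1 mRNA were 24 to 3841 nt apart. Besides HNRNPU and SRRM2, gaps of 154 nt in SF3B1, 194 nt in PRPF8 and 198 nt in SF3B3 were found, and the distant pairs were in HNRNPA3, HNRNPU and PRPF8.

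Transcript length was compared next. The 16 mRNAs with a site had a median length of 5400 nt (1277 to 9692), and the 27 without had a median of 3047 nt (945 to 8713), so the ranges overlapped. Of the 27 member mRNAs of at least 3000 nt 13 had a site (48.1%), beside 9.28% of all protein-coding genes of that length, and of the 16 shorter ones 3 did (18.8%), beside 4.44%. Those 3 were SNRPA, HNRNPF and DHX15. HNRNPA0, PRPF4B, PTBP3, LUC7L3 and RBM25 were the longest mRNAs without a site, all of at least 6813 nt. Per kb of mature transcript, the mRNAs with a site had a median of 0.318 sites. SNRPA was highest (0.783), HNRNPU (0.437) and PRPF8 (0.412) came next, and HNRNPR was lowest (0.129). In 10 of these genes the value rests on 1 site.

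**Figure D3:**
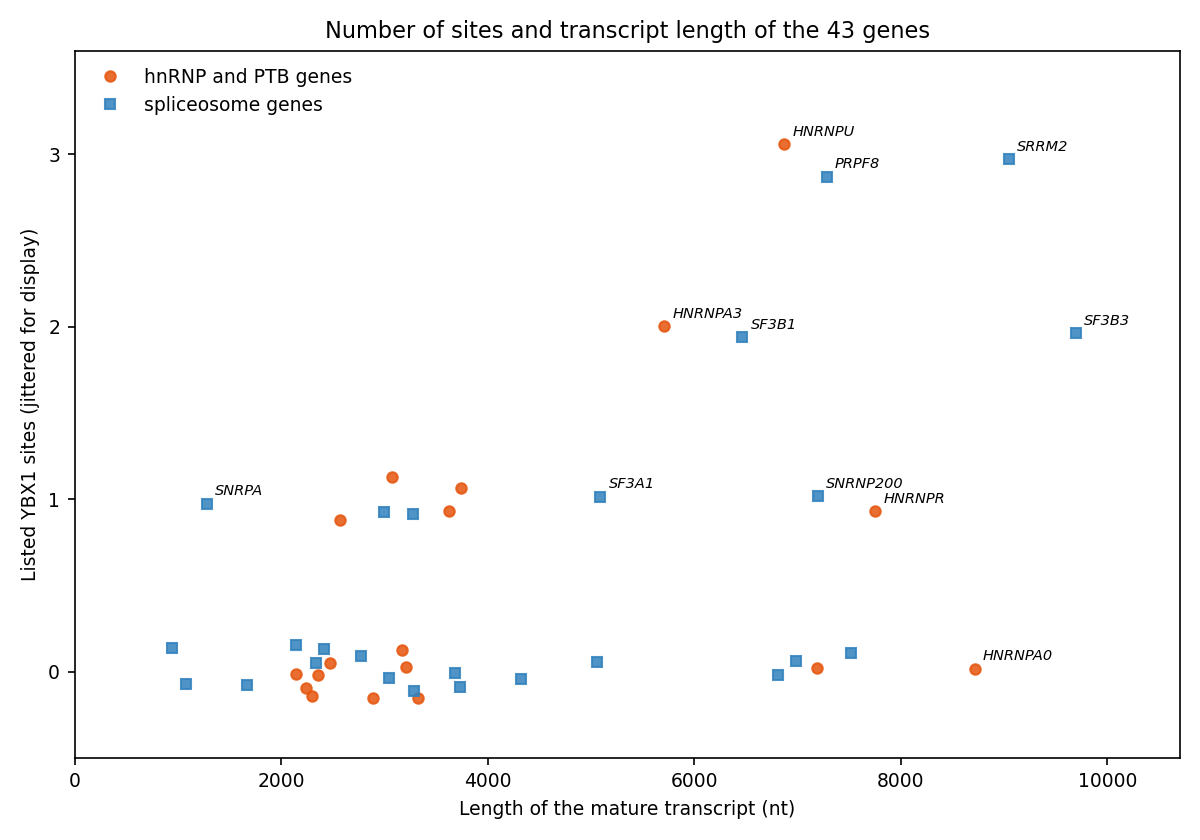
Number of listed YBX1 sites (y axis, shifted slightly so that points do not cover each other) against the length of the mature transcript (x axis, nt) for all 43 genes, with hnRNP and PTB genes as orange circles and spliceosome genes as blue squares. All 6 genes with 2 or 3 sites have mRNAs of at least 5710 nt, while HNRNPA0 with 8713 nt has none.

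RNase T1 cuts after G, so the number of G-free stretches of at least 17 nt was counted in each mRNA as a measure of what the method can recover. The median was 16.5 stretches (3 to 52) in the mRNAs with a site and 9 (1 to 63) in those without. Of the 24 member mRNAs with 12 or more such stretches, 13 had a site, beside 10.7% of all protein-coding genes with as many. Of those with 4 to 11, 2 of 14 did (SF3B2 and HNRNPD), beside 4.75%, and of those with fewer, 1 of 5 (SNRPA), beside 2.68%. Per kb the difference was small, with a median of 3.74 in mRNAs with a site and 3.24 in the others. The 5 tetramers occurred 20.4 times per kb in mRNAs with a site and 18.7 times per kb in those without (medians, with overlapping ranges of 14.7 to 29.8 and 13.2 to 26.5), and the highest count was that of PRPF8.

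The member sites had the ends that RNase T1 leaves. Listed positions were read so that its G falls on the last base, so the share of G there is not an independent result. The same reading sets which base comes before the site, so the share of G at that base is not independent either. In 24 of 25 the last base was G and in 24 the base before the site was G, against 87.6% and 78.7% of 1965 other sites. The exceptions were the second HNRNPU site, which ends in A, and the first SF3B1 site, which follows an A. A G inside the site was absent from 21 of 25 (77.7% of the others), and the SNRNP200 site held the most, with 4. Sites were 18 to 29 nt wide with a median of 22 nt, the same median as for the other sites.

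The member sites consisted of 33.0% A, 27.9% C, 5.48% G and 33.6% U, and the other sites of 32.1% A, 28.3% C, 8.12% G and 31.4% U. C and A together ranged over the members from 50% in HNRNPF to 77.3% in the second SRRM2 site. Equally wide windows at a distance of 100 nt within the exon could be taken for 19 sites, and the sites held 61.3% C and A and the windows 47.7%. The difference was 13.6 percentage points ± 13.5 (SD over 19 sites, which are not replicates), and the site was higher in 15, equal in 2 and lower in 2, HNRNPF and the second HNRNPA3 site. For the 1411 other sites with such windows the difference was 12.8 points. With G left out the mean member difference was 4.55 points but the median was -0.24, with 9 sites higher and 10 lower, so the direction was not kept by most sites. Against windows that begin after a G, end in G and hold as many G as the site, the mean was -0.87 points and the median 2.79 (12 sites, 7 higher and 5 lower). In that comparison the 821 other sites had a mean of 4.77 points.

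**Figure D4:**
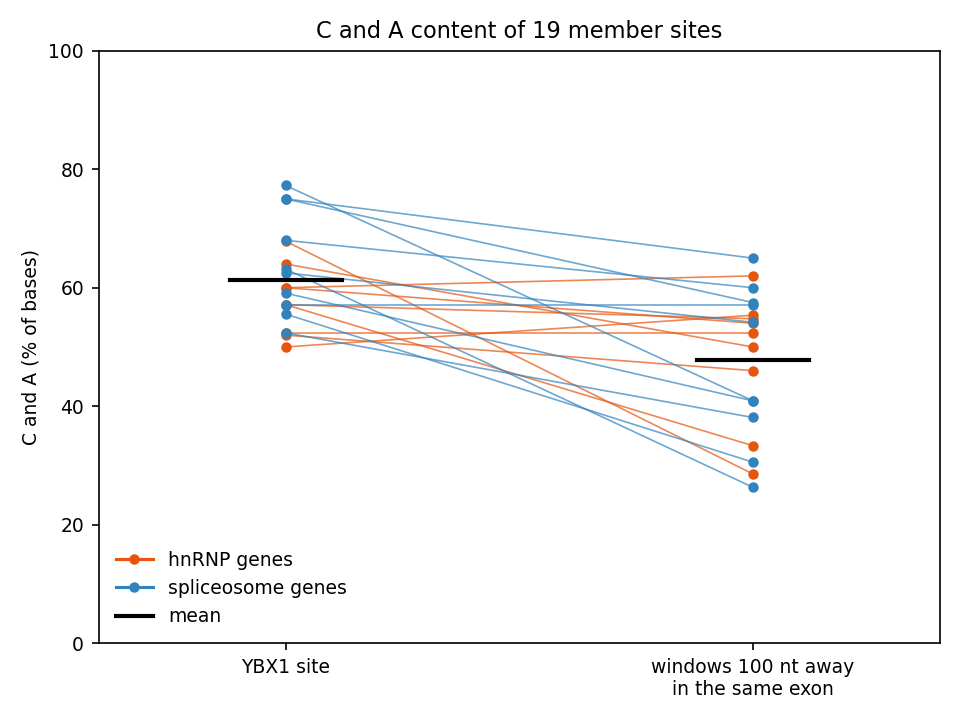
C and A content (y axis, percent of bases) of 19 member sites (left) and of the mean of their windows 100 nt away in the same exon (right), with a line joining each site to its windows, hnRNP genes in orange, spliceosome genes in blue and the means as black bars. The means are 61.3% for sites and 47.7% for windows, and 15 of the 19 lines fall from site to windows.

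At least 1 of the 5 tetramers was found in 18 of 25 member sites (72.0%, 52.4 to 85.7) and in 69.9% of the other sites. CAAC was in 8 (32.0%, against 26.6% of the others), AACU in 7 (28.0%, 28.4%), CAUC in 6 (24.0%, 24.8%), AACA in 6 (24.0%, 30.9%) and CACC in 4 (16.0%, 14.1%). In each case the share in the other sites lay inside the Wilson interval of the member share. None of the 5 was found in HNRNPD, in the first and last HNRNPU sites, the second HNRNPA3 and SF3B1 sites, the first SF3B3 site or the last SRRM2 site.

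Not every site has a single place in the genome. Both HNRNPA3 sequences occur more than once, at 3 and 2 places, and the other 23 occur at 1 place. With 1 mismatch allowed, the second SF3B1 site of 18 nt had 18 further places. The first and second HNRNPU sites each had a copy with 1 mismatch on chromosome 14, from 43300620 to 43300647 and from 43300672 to 43300696, and the second had another on chromosome 15. Without the sites of more than 1 place, HNRNPA3 had none left and 15 genes kept a site. The share of all protein-coding genes was not counted again without such sites. The HNRNPA3 sites lie opposite NFE2L2 and the SNRPA site opposite ACTMAP on the other strand. No listed site lay on the other strand of a member gene.

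Genes of the same machinery outside the 43 were listed as well. Of 19 other hnRNP-like genes 6 had a site (31.6%, 15.4 to 54.0), KHSRP with 3 and PCBP1 and PCBP2 with 2 each. Of 65 other spliceosome genes 12 did (18.5%, 10.9 to 29.6), CDC5L with 2. Of the 15 SR, TRA2 and SON genes 7 did (46.7%, 24.8 to 69.9), SON with 5 and SRSF1, SRSF3 and TRA2B with 3 each. The intervals of these lists overlapped that of the 43 genes (24.4 to 52.1), but the share of the other spliceosome genes (18.5%) lay below it. Among the spliceosome members 9 of 25 had a site (36.0%, 20.2 to 55.5). Members and lists were chosen with earlier results of these data known, and differences between lists were not tested. The hnRNP-like genes had 7 of 10 sites in coding sequence and 3 in 3′UTRs, whereas the hnRNP members had 2 and 8, and this difference was not tested. Of the 13 sites of the other spliceosome genes 6 were coding, 5 3′UTR and 2 outside the exons of the main transcript. The 17 sites of the SR, TRA2 and SON genes were 6 coding, 10 3′UTR and 1 outside these exons. All member sites lay in exons, so the shares of these 2 lists also count sites of another kind.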

How the data were processed

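The deposited list of YBX1 sites from HEK293 cells gives genome positions (hg38), strand, gene and class. The submitters' processing notes name cutadapt 1.4.1, HOMER and hg38. By the methods, the authors aligned trimmed reads with PARA-suite to the genome and to transcripts, BMix grouped them by strand into sites, and HOMER annotated these. Both replicates were pooled and no count, score or depth is given. Starts were read as base 1 counting and the last base as 1 before the listed end, where the G left by RNase T1 lies on both strands. Regions came from GENCODE release 44, with the MANE Select or canonical transcript as the main one. Base and tetramer values used sites of at most 40 nt outside the mitochondrial chromosome. Occurrences were searched in the primary chromosomes of hg38. Positions and regions were computed in Python 3.11.15 and tested on simulated transcripts. All 43 members are named, and of the related lists the genes with 2 or more sites. The members, lists and tetramers were chosen with earlier results of these data known. No test across samples was possible, and values are descriptions.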

Additional observations from a re-analysis of the deposited data

How the results depend on the processing

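Counts were 25 sites in 37.2% of the genes with any overlap in place of the midpoint, without regard to strand and with the authors' gene names, and 24 sites when sites within 50 nt were merged. With only sites wider than the median of 22 nt, 10 sites in 8 genes (18.6%) were left. The share of all protein-coding genes (6.76%) was counted with sites of any width. It would be lower or equal with wide sites only, so 18.6% has no like value beside it. The share of sites in 3′UTRs was 68.0% over any transcript and 40% with coding exons first. It was 40% with 1 transcript per gene and 36.0% in the authors' annotation. For the other sites it was 55.2%, 47.3%, 46.6% and 35.3% in the same order of settings. The other sites include introns and intergenic sequence, so the bases are unlike and no order of members and others is read from these shares. The mean difference in C and A between sites and windows was 13.6 points with windows 100 nt away, 10.6 points with windows 300 nt away, and 4.55 points with sites extended by 10 nt. With G left out the mean was 4.55 points and the median -0.24 (9 sites higher, 10 lower), and against windows cut after G the mean turned to -0.87 points while the median was 2.79 (7 higher, 5 lower). Extended by 10 nt, 88.0% of sites held a tetramer of the 5, against 72.0%. No paired analysis was possible because both replicates were pooled into 1 list, and for the same reason no replicate could be left out. Depth is unknown, so an unlisted gene is not shown to be unbound.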

Other observations

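These values were chosen after the sites had been seen and are given as descriptions. Of the 10 member sites in 3′UTRs, 5 began within 250 nt of the stop codon (50%, Wilson 95% interval 23.7 to 76.3), in HNRNPA2B1, HNRNPU (2), and SF3B1 (2), where even placement over the length of the same 3′UTRs gives 0.935. Among the 945 other sites in 3′UTRs 17.9% began there, where length gives 14.4%. The HNRNPD site across the stop codon is not among the 5. The HNRNPU pair lies 24 nt apart and the SF3B1 pair 154 nt apart. The 5 are therefore not separate placements, which the interval and the value of 0.935 do not take into account. The limit of 250 nt falls between the distances of 207 nt (SF3B1) and 576 nt (HNRNPF), so the count depends on that choice.

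The hexamer ACUUCA was present in 5 member sites of 5 genes (PRPF8, SF3A1, SF3B1, SNRPA and SRRM2) and CUUCAC in 5 of 5 genes (HNRNPU, SF3A1, SF3B1, SNRPA and SRRM2), each 20% of the member sites, against 2.54% and 1.93% of 1965 other sites. They were picked as the most widely shared of all hexamers in these sites, so a share above that of the other sites follows in part from the choice. They overlap by 5 bases and have SF3A1, SF3B1, SNRPA and SRRM2 in common, so they are not separate results. No test was made.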
